A study of Mus musculus with 4 samples.

Results

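Integrins and laminins are the subject here, described on 4 arrays by every probe that the array design names as an integrin alpha gene, an integrin beta gene or a laminin chain gene. The rule used names only, and took 78 of 41174 non-control probes. These probes stand for 35 of 27663 genes or transcripts on the array, which are 17 alpha subunits, 8 beta subunits and 10 laminin chains. The rule missed Lamb1, which the design lists under an older name. Its values are given with the basement membrane genes.

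The samples were 1 pool of tissue RNA and 3 neural progenitor cell (NPC) lines, each hybridised once. Mixture combined the RNA of 6 organs (heart, lung, liver, kidney, spleen and thymus) with that of day 11 embryos in equal amounts, and its strain label is Swiss Webster. The NPC lines were NS21, derived from embryonic stem (ES) cell line 21 and labelled 129/Ola, NS195R, derived from ES line 195R and labelled 129/Sv, and NSEB5-2C, derived from ES line EB5 and labelled 129/Ola. Each array received Cy3-labelled cRNA made from 0.25 ug of total RNA. Since the strain of Mixture differs from that of each line, a ratio to Mixture mixes strain with cell type, which cannot be told apart. Ages of the mice and culture conditions of the lines are not given in the sources used here. The lines are always listed in the order NS21, NS195R, NSEB5-2C. They stand as NPC replicates 1 to 3, and the spread between them contains line differences as well as technical error.

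Integrins are cell surface receptors made of 1 alpha and 1 beta subunit, and the pairing sets which ligand is bound. Some pairs bind laminins, some collagens, some fibronectin or vitronectin, and the leukocyte pairs bind counter-receptors on other cells. Laminins are secreted trimers of an alpha, a beta and a gamma chain that assemble into basement membranes. In the developing brain, progenitor cells hold on to the laminin-rich basement membrane through integrins that contain the beta subunit encoded by Itgb1.

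The regulatory sequence before the gene start is shown for 5 members that stand for the patterns described further on. Itgb1 had a like level in all lines, Itga4 and Itgb8 were highest in NS195R, Itgb5 was lowest in NS195R, and Itgb6 was not measurable in any line. The sequences are the 250 bases before the RefSeq gene start on assembly GRCm38.p6, written 5′ to 3′ on the gene's strand. Capitals mark any match to 6 motifs searched on both strands.
Itgb1, chr8:128685404-128685653, plus strand: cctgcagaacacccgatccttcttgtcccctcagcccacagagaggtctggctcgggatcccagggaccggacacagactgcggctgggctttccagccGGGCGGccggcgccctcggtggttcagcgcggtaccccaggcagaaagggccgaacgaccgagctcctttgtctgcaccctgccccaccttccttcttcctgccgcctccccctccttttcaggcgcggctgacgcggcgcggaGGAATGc
Itga4, chr2:79255176-79255425, plus strand: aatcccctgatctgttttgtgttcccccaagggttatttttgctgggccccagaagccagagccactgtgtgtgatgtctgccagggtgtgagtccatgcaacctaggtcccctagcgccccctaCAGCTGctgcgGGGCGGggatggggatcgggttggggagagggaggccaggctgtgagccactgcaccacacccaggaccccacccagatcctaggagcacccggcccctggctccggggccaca
Itgb8, chr12:119238277-119238526, minus strand: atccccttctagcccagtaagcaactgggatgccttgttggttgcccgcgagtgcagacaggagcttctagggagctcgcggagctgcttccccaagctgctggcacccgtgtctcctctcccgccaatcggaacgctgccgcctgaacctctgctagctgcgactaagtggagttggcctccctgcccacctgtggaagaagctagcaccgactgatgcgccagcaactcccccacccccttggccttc
Itgb5, chr16:33829415-33829664, plus strand: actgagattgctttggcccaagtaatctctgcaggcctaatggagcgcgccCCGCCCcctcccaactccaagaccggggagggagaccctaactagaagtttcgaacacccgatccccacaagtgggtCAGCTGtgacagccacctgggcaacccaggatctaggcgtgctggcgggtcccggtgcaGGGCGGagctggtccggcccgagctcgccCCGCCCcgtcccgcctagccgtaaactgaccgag
Itgb6, chr2:60722604-60722853, minus strand: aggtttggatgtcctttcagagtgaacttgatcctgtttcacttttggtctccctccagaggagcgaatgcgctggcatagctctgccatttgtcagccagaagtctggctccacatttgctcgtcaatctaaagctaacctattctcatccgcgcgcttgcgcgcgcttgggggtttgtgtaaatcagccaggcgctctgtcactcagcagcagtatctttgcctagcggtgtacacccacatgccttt
The motifs were a GC box (GGGCGG), an E-box (CAGCTG), a TEAD motif (GGAATG), an AP-1 motif (TGANTCA), a SOX motif (ACAATG) and a TATA box (TATAAA), and the letters of none lie within another. Of 35 members 22 had at least 1 window in the RefSeq table, 25 windows in all, of which 12 lie at the annotated gene start. Itgb1 held 1 GC box and 1 TEAD motif, Itga4 held 1 GC box and 1 E-box, and Itgb5 held 3 GC boxes and 1 E-box. Itgb8 and Itgb6 held no match in these windows. A GC box was present in 8 of the 25 member windows and in 32.7% of all 32851 windows of this length. For the E-box it was 6 windows against 13.0%, for the TEAD motif 3 against 12.6%, for the AP-1 motif 1 against 6.75%, for the SOX motif 1 against 10.7%, and for the TATA box 0 against 12.4%. The G and C content had a median of 57.6% over the member windows and 52.4% over all windows. It was 68.0% for Itgb1 and 52.0% for Itgb6. A match in these letters is a description of the sequence and not a site.

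A level is the log2 processed signal of a gene's probe minus the array's percentile 75, so that 0 is the signal which 75% of spots do not exceed. Levels are compared between arrays for 1 probe and never between probes. Signals that the scanner software flagged as well above background are called detected, and all others dim. Of 43379 non-control spots between 23983 (NSEB5-2C) and 26840 (Mixture) were detected, and of the 96 member spots 76 were detected in Mixture, and 48, 63 and 60 in the lines. No member spot was saturated. The copies of a repeated probe on 1 array had a median standard deviation of 0.0734 to 0.117, and the number of arrays limits the precision. In 33 of the 35 genes the probe with the highest mean was detected on at least 1 array. Those 33 entered the test with all other such genes, 19826 in total. Detected on all 4 arrays were 18 of the 33 (54.5%), against 64.2% of all genes tested, and 4 (12.1%) were detected in Mixture but in no line, against 10.3%. The opposite, detected in a line but dim in Mixture, held for 1 (3.03%), against 13.4%. In NS21 25 of the 33 were detected (75.8%, against 77.6%), in NS195R 24 (72.7%, against 80.5%) and in NSEB5-2C 24 (72.7%, against 75.4%). Itga2, a collagen receptor subunit, and Lamc3, a laminin gamma chain, were dim on all 4 arrays.

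The labels were checked with fixed lists of marker genes. Mixture has 1 label that names a doxycycline-treated NPC line. Against that label, all 6 leukocyte, 4 platelet, 5 endothelial, 6 epithelial and 5 muscle markers were detected in Mixture. The NPC lines had 0, 0 and 1 of the leukocyte markers and 0, 1 and 0 of the endothelial markers. They had 1, 2 and 1 of the platelet markers, 6, 0 and 5 of the epithelial markers and 4, 3 and 2 of the muscle markers. Of 7 neural progenitor markers 5, 7 and 6 were detected in the lines. Fabp7, a fatty acid binding protein of radial glia, was dim in NS21 and NSEB5-2C, and Sox2, a neural stem cell factor, was dim in NS21.

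Against Mixture, more integrin and laminin genes were lower than higher in the NPC lines. Of 33 tested members 18 lay below Mixture in all 3 lines (54.5%, against 28.8% of all genes tested) and 7 above it in all 3 (21.2%, against 43.0%). With dim signals raised to the lowest measurable one these were 18 (against 29.0%) and 6 (against 40.2%), without Itga10, which was dim in Mixture and in 2 lines. The limma test (two-sided, Benjamini-Hochberg adjusted over 19826 genes, adjusted p under 0.05) called 4 members lower, which is 12.1% of the members against 8.91% of all genes tested. These were the leukocyte subunits Itgal, Itgam and Itgax and the epithelial subunit Itgb6. It called 0 members higher, against 0.938% of all genes, while without adjustment 5 members above Mixture (15.2%, against 15.6% of all genes) and 9 below it (27.3%, against 15.4%) had a p under 0.05. Leaving out any of the NPC lines ended the 4 calls, and then no gene of the whole array passed. A test of genes detected on every array held none of the 4, since each was dim in at least 2 lines. Itgam, Itgax and Itgb6 were dim in every line and entered the test of 19826 genes through Mixture alone. The spread between lines in their fits is that of background readings.

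The median log2 ratio of the NPC lines to Mixture was -2.18 over the 33 members, with a standard deviation of 0.61 between the medians of the 3 lines. Over all genes tested it was 0.44. With signals below background raised to the lowest measurable signal, the medians were -1.75 and 0.31. Among genes detected on all 4 arrays they were -0.89 over 18 members and 0.71 over 12732 genes. Every line lay at least 2-fold below Mixture for 12 members (36.4%), against 19.5% of all genes, and at least 2-fold above it for 5 members (15.2%), against 18.7%. Line by line, NS21 lay at least 2-fold below Mixture for 22 members (66.7%, against 28.5% of all genes), NS195R for 17 (51.5%, against 27.3%) and NSEB5-2C for 19 (57.6%, against 30.2%). At least 2-fold above Mixture lay 8 members in NS21 (24.2%, against 35.2%), 6 in NS195R (18.2%, against 34.5%) and 11 in NSEB5-2C (33.3%, against 32.7%). In bulk RNA, fewer cells of a type and less RNA per cell cannot be told apart.

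**Figure D1:**
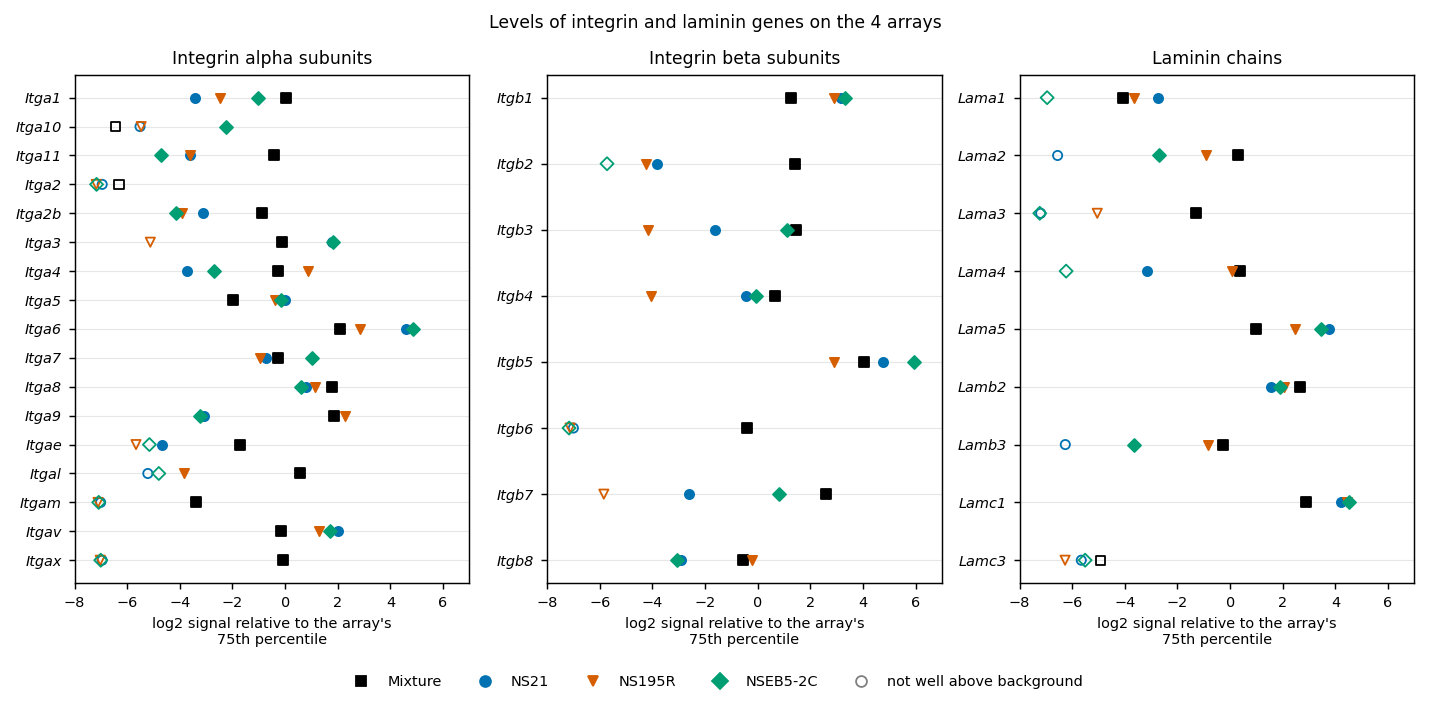
Level of 34 of the 35 genes on each array, as log2 signal relative to the array's percentile 75 (horizontal axis), for integrin alpha subunits, integrin beta subunits and laminin chains. Open symbols are dim signals. For Itgb1, Itgav, Itga5, Lama5 and Lamc1 all 3 lines lie to the right of Mixture, and for Itgax, Itgam, Itgb6 and Lama3 all 3 lines are open symbols to its left.

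Among the subunits of fibronectin and vitronectin receptors, Itgb1, Itga5 and Itgav were above Mixture in each line. Itgb1, the beta subunit shared by most matrix-binding integrins, had a level of 1.26 in Mixture and of 3.15, 2.90 and 3.33 in the lines. All 3 lines lay above Mixture and within 0.44 of each other. The mean was 3.64-fold above Mixture (log2 ratio 1.86, SE 0.39, limma adjusted p = 0.0880), which did not pass the test. This is the ratio of 1 of 3 probes, and the mean over all 3 turned it to -0.46. Itga5, which pairs with the Itgb1 product to form the main fibronectin receptor, stood at -1.96 in Mixture and at -0.01, -0.38 and -0.17 in the lines. Again no line overlapped Mixture, and the difference of 3.43-fold did not pass (log2 ratio 1.78, SE 0.37, limma adjusted p = 0.0887). For Itgav, the alpha subunit of the vitronectin receptors, the levels were -0.16 in Mixture and 2.00, 1.30 and 1.71 in the lines (log2 ratio 1.83, SE 0.46, limma adjusted p = 0.112). Relative to the median of all genes, these 3 ratios were 1.42, 1.34 and 1.39. They lay between 1.0 and 1.61 relative to that median under the other scalings and the other background correction. With normexp background correction Itga5 (adjusted p = 0.0424) and Itgb1 (0.0318) passed limma.

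The beta partners of the alphav subunit did not move together. Itgb5, which forms a vitronectin receptor with it, had 4.03 in Mixture and 4.77, 2.89 and 5.93 in the lines. NSEB5-2C was thus highest and NS195R lowest, below Mixture, and the mean ratio of 0.50 (SE 1.41) turned to -0.20 without NSEB5-2C. Itgb3, the beta subunit of the platelet fibrinogen receptor and of a vitronectin receptor, had 1.47 in Mixture and -1.62, -4.17 and 1.10 in the lines. Here NSEB5-2C was near Mixture and the other lines were lower, and the mean difference did not pass the test (log2 ratio -3.03, SE 2.38, limma adjusted p = 0.461). Itgb8, which with alphav activates latent TGF-beta in neural tissue, had -0.55 in Mixture and -2.90, -0.20 and -3.06 in the lines, so that only NS195R reached the level of Mixture. Itgb6, the epithelial partner with the same activity on TGF-beta, had -0.39 in Mixture and was dim in all 3 lines. The lines lay at least 26.9-fold below Mixture. With the dim signals as read the log2 ratio was -6.70 (limma adjusted p = 0.00876, lower in 3 of 3 lines). Itga8, an alpha subunit known from kidney development, had 1.78 in Mixture and 0.78, 1.15 and 0.60 in the lines (log2 ratio -0.94, SE 0.42, limma adjusted p = 0.240).

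Laminin receptors differed by subunit. Itga6, a laminin-binding alpha subunit of neural progenitors and epithelia, had 2.09 in Mixture and 4.60, 2.83 and 4.85 in the lines. By this probe all lines were above Mixture, NS195R by the least (log2 ratio 0.74), and the mean ratio of 2.01 (SE 1.04) did not pass limma (adjusted p = 0.293). By the other Itga6 probes NS195R was not above Mixture (log2 ratios -0.0017 and -1.06). Itga3, which binds laminin in epithelia and in migrating neurons, had -0.12 in Mixture, 1.77 in NS21 and 1.82 in NSEB5-2C. In NS195R it was dim. The mean ratio was -0.39 (SE 3.59), and it turned to 1.91 without NS195R, 0.39 with normexp and 0.36 with median scaling. Itgb4, which pairs with the Itga6 product in hemidesmosomes, had 0.66 in Mixture and -0.44, -4.04 and -0.07 in the lines, with NS195R again far below the others. Itga7, a laminin receptor subunit of muscle, had -0.27 in Mixture and -0.73, -0.94 and 1.01 in the lines, and its ratio of 0.05 (SE 1.02) turned to -0.57 without NSEB5-2C.

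Of 5 tested subunits of collagen receptors and of receptors for tenascin-C or VCAM1, 4 had a mean below Mixture and 0 passed the test. Itga1, a collagen receptor subunit, had 0.01 in Mixture and -3.42, -2.47 and -1.03 in the lines (log2 ratio -2.32, SE 1.12, limma adjusted p = 0.268). Itga11, a collagen receptor subunit of mesenchymal cells, had -0.43 in Mixture and -3.61, -3.61 and -4.71 in the lines, and lay 11.7-fold lower without passing limma (log2 ratio -3.55, SE 0.66, adjusted p = 0.0746). It passed with normexp (adjusted p = 0.0251) and with quantile normalization (0.0482). Mesenchyme markers, of which 6, 6 and 5 of 6 were detected in the lines, had a median ratio of -4.71. Their summed signal, on a common scale for all arrays, was 65617 in Mixture and 4129, 10897 and 13053 in the lines, and their part in these ratios was not tested. Itga10, a collagen receptor subunit of cartilage, was the only tested member dim in Mixture. Among the lines it was measured in NSEB5-2C alone, at -2.26. Itga4, a fibronectin and VCAM1 receptor subunit, had -0.28 in Mixture and -3.72, 0.88 and -2.72 in the lines. Itga9, a receptor subunit for tenascin-C and VCAM1, had 1.85 in Mixture and -3.07, 2.29 and -3.24 in the lines. For both, NS195R lay above Mixture and the other lines far below it. A further Itga4 probe, listed for another cDNA, put NSEB5-2C (-4.25) above NS195R (-4.92). Every other detected Itga4 probe put NS195R highest of the lines.

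The leukocyte integrins held 3 of the 4 calls. Itgax, a subunit typical of dendritic cells, had -0.09 in Mixture and was dim in all 3 lines, thus at least 33.2-fold lower. With these dim signals as read its log2 ratio was -6.91 (limma adjusted p = 0.00859, lower in 3 of 3 lines). The other Itgax probe was dim on all 4 arrays. Itgam, a myeloid subunit, had -3.40 in Mixture and was likewise dim in all 3 lines, thus at least 3.36-fold lower. With these as read its log2 ratio was -3.67 (limma adjusted p = 0.0189). This call was lost with normexp (adjusted p = 0.190) and with median scaling (0.0615). Itgal, a lymphocyte subunit that binds ICAM proteins, had 0.57 in Mixture, -3.85 in NS195R, and was dim in the other lines. Its log2 ratio of -5.20 (SE 0.71, limma adjusted p = 0.0415) includes the dim signals of 2 lines as read, and was -5.14 with these raised (adjusted p = 0.0268). The call was lost with an intensity trend and a robust prior together (adjusted p = 0.0546), with no filter on dim genes (0.0501) and with the mean of its probes (0.0716).

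Their common beta subunit, Itgb2, had 1.44 in Mixture, -3.82 in NS21 and -4.26 in NS195R, and was dim in NSEB5-2C. With that dim signal as read its log2 ratio was -6.04 (SE 0.95, limma adjusted p = 0.0551). It passed limma with dim values raised (adjusted p = 0.0239), normexp (0.00525), quantile normalization (0.0399) and median scaling (0.0484). Itgae, whose product on intraepithelial lymphocytes binds E-cadherin, had -1.71 in Mixture and -4.69 in NS21, and was dim in the other lines (log2 ratio with these as read -3.46, SE 0.55, limma adjusted p = 0.0560). It passed with dim values raised (adjusted p = 0.0217) and with the mean of its probes (0.0325). Its beta partner Itgb7 had 2.58 in Mixture, -2.60 in NS21 and 0.81 in NSEB5-2C, and was dim in NS195R. So NSEB5-2C was 10.6-fold above NS21 for a subunit known from lymphocytes. Itga2b, the alpha subunit of the platelet fibrinogen receptor, had -0.89 in Mixture and -3.12, -3.92 and -4.15 in the lines (log2 ratio -2.84, SE 0.59, limma adjusted p = 0.0876), and passed with normexp (adjusted p = 0.0405).

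Leukocyte markers were also lower in the lines than in Mixture, though Itgal, Itgb2, Itgae, Itgb7 and Itga2b were each detected in at least 1 line. Of the 6 markers 5 were dim in all 3 lines, Ptprc, Cd3d, Csf1r and Tyrobp among them, and Laptm5 was measured only in NSEB5-2C, at -4.37 against 1.42 in Mixture. Scaled so that every array has the same percentile 75 (245 signal units), the 6 markers summed to 7307 in Mixture and to 15.6, 17.6 and 23.0 in the lines. For platelet markers the sums were 3789 in Mixture and 41.9, 926 and 14.7 in the lines, where the 926 of NS195R came mostly from Pf4 (level 1.89). The part of these cells in the integrin ratios was not tested.

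**Figure D2:**
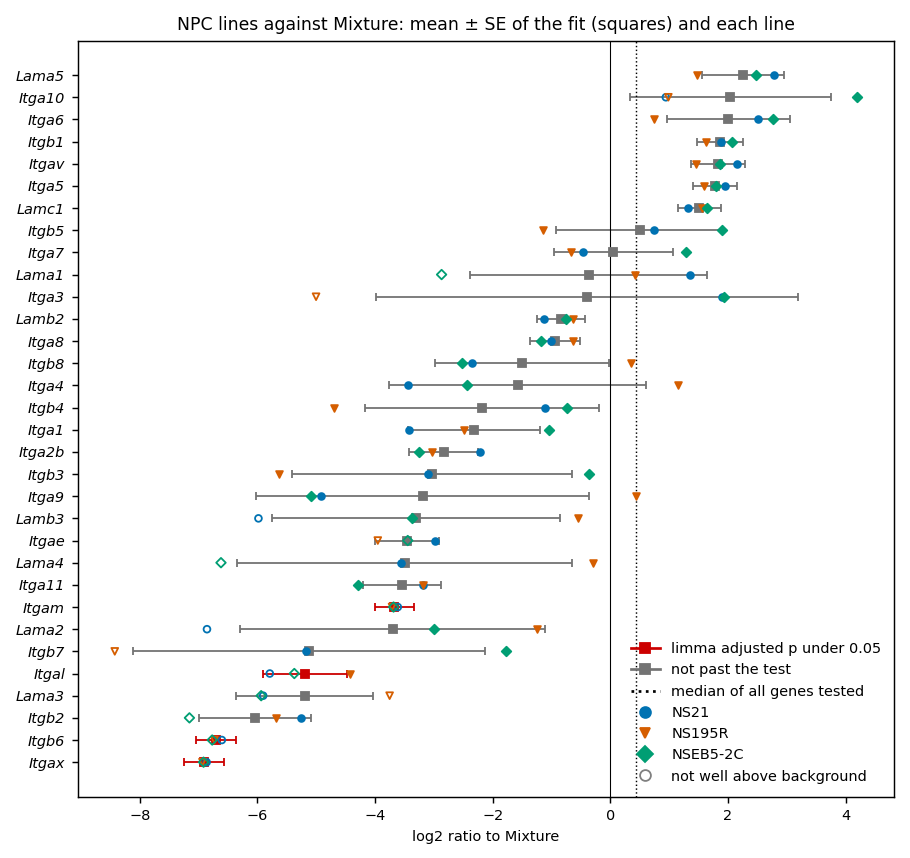
Log2 ratio to Mixture (horizontal axis) of 32 of the 33 tested members, as the limma mean of the 3 lines with its SE (squares) and as each line (other symbols, open where dim). Red squares mark the 4 members past the test, all to the left of 0, and the dotted line marks the median of all genes tested, 0.44.

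Of 9 tested laminin chains 2, Lama5 and Lamc1, lay above Mixture in each line and 5 lay below it in each. Lamc1, the common gamma chain, had 2.89 in Mixture and 4.21, 4.45 and 4.53 in the lines. The lines lay within 0.32 of each other and 2.85-fold above Mixture (log2 ratio 1.51, SE 0.37, limma adjusted p = 0.108), and passed with normexp (adjusted p = 0.0368). Lama5, an alpha chain of many epithelial basement membranes, had 0.97 in Mixture and 3.76, 2.45 and 3.45 in the lines, a mean of 4.75-fold above Mixture (log2 ratio 2.25, SE 0.70, limma adjusted p = 0.148). Lamb2, a beta chain known from nerve-muscle synapses and kidney, had 2.66 in Mixture and 1.54, 2.03 and 1.90 in the lines, below Mixture in 3 of 3 (log2 ratio -0.84, SE 0.41, limma adjusted p = 0.267). Relative to the median of all genes the 3 ratios were 1.07 (Lamc1), 1.81 (Lama5) and -1.28 (Lamb2).

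The other alpha chains differed between lines. Lama1, the chain of early embryonic basement membranes, had -4.08 in Mixture, -2.73 in NS21 and -3.67 in NS195R, and was dim in NSEB5-2C. The mean ratio of -0.37 (SE 2.01) turned to 0.06 with normexp, 0.47 with quantile normalization and 0.38 with median scaling. Lama2, a chain of muscle and peripheral nerve, had 0.30 in Mixture, -2.70 in NSEB5-2C and -0.94 in NS195R, but was dim in NS21. Lama4, a chain of vessel walls, had 0.39 in Mixture, -3.17 in NS21 and 0.09 in NS195R, and was dim in NSEB5-2C. In both genes NS195R was the line nearest to Mixture.

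Lama3 and Lamb3, chains known from epithelial basement membranes, did not have matching patterns. Lama3 had -1.29 in Mixture and was dim in all 3 lines, thus at least 13.96-fold lower with dim signals raised. The limma adjusted p of that fit (0.00864) rests on lines set at or near the lowest detected signals. It does not measure variation of the gene. With the dim signals as read the ratio did not pass (adjusted p = 0.0972), and with normexp it passed (0.0248). The other Lama3 probe was dim on all 4 arrays, so the fold rests on 1 probe. Lamb3 had -0.28 in Mixture, -3.65 in NSEB5-2C and -0.83 in NS195R, but was dim in NS21. NS195R was thus the line nearest to Mixture for Lamb3, while Lama3 was not measurable there.

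Between the NPC lines many members differed. NS195R is the only line labelled 129/Sv, so line and strain cannot be told apart where it differs from the others. With dim signals raised to the lowest measurable one, the highest and lowest line differed at least 4-fold for 16 of 33 members (48.5%), against 20.4% of all genes tested. Of the 18 members detected in all 3 lines, the standard deviation between lines ran from 0.17 to 3.14 on the log2 scale, with a median of 0.88. It was under 0.5 for Itga5, Itga8, Itgav, Itgb1, Lamb2 and Lamc1. Over the same 18 members, the median absolute log2 difference was 0.34 between NS21 and NSEB5-2C, 0.88 between NS21 and NS195R and 1.27 between NS195R and NSEB5-2C. Over the 13342 genes measured in all lines, these distances were 0.49, 0.47 and 0.58. Each line was hybridised once, and a limma fit of each line against the other lines called 0 genes of the whole array. Unadjusted, of 33 members 1 had a p under 0.05 in the fit of NS21, 7 in that of NS195R and 3 in that of NSEB5-2C. Of all 19826 genes these were 1132, 2082 and 1155. The counts that follow are therefore counts of size, each by the gene's probe with the highest mean.

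NS195R exceeded both other lines at least 2-fold for 7 members (21.2%), against 12.6% of all genes. They were Itga9 (41.1-fold above the higher of the other lines), Itga4 (12.1-fold), Lama4 (9.58-fold), Lamb3 (7.04-fold), Itgb8 (6.52-fold), Lama2 (3.40-fold) and Lama3, which was dim in all 3 lines. NS195R lay at least 2-fold below both for 8 members (24.2%), against 7.37% of all genes. By its probe with the highest mean, Itga3 was at least 118.9-fold below the lower of the other lines. For Itgb4 it was 12.05-fold and for Itgb7 at least 6.02-fold. Also among the 8 were Itgb3 (5.84-fold), Itgb5 (3.69-fold), Itga6 (3.41-fold) and Lama5 (2.01-fold).

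NSEB5-2C exceeded both other lines at least 2-fold for 7 members (21.2%), against 6.93% of all genes. They included Itgb7 (10.6-fold), Itga10 (at least 6.94-fold), Itgb3 (6.62-fold), Itga7 (3.35-fold), Itga1 (2.71-fold) and Itgb5 (2.23-fold). It lay below both for 4 members (12.1%, against 9.34%), which were Lama4 (at least 4.05-fold), Lama1 (at least 2.87-fold), Itga11 (2.15-fold) and Itgb2 (at least 1.91-fold after the dim signal was raised). NS21 lay above both other lines for 0 members, against 8.88% of all genes. It lay below both for 2 (6.06%, against 5.87%), which were Lama2 (at least 5.10-fold) and Lamb3 (at least 2.65-fold).

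**Figure D3:**
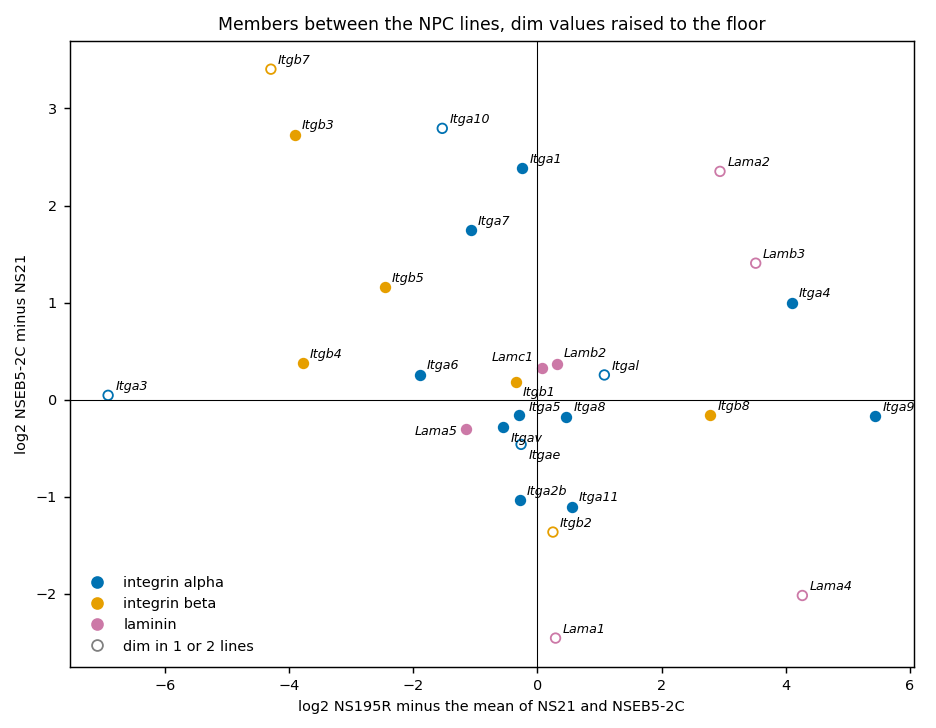
Members (one left out) measured in at least 1 NPC line, placed by the log2 difference of NS195R from the mean of the other lines (horizontal axis) and of NSEB5-2C from NS21 (vertical axis), with dim signals raised to the lowest measurable one. Itga9, Lama4 and Itga4 lie far to the right, Itga3, Itgb7, Itgb3 and Itgb4 far to the left, and Itgb1, Lamc1, Lamb2, Itga5, Itga8 and Itgav near the centre.

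Markers of other cell types also differed between the lines. Epithelial markers were measured in NS21 (6 of 6) and NSEB5-2C (5 of 6) and in NS195R 0 of 6 were. Their summed scaled signal was 17143 in Mixture and 41103, 18.8 and 9049 in the lines. The keratin gene Krt8 had 4.71 in Mixture, 4.42 in NS21 and 1.34 in NSEB5-2C, and was dim in NS195R. In that line Itga3 and Itgb4 lay lowest, while Lamb3, a chain known from epithelia, lay highest. Between NS21 and NSEB5-2C, Itga3 (1.77 and 1.82) and Itgb4 (-0.44 and -0.07) did not follow the epithelial sums.

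By sums and by median ratios to Mixture, the reverse held for neural and glial markers. Of 5 markers of glia and Schwann cells 3 were measured on at least 1 array, Sox10 and S100b among them. These 3 summed to 330 in Mixture and to 67.0, 4376 and 28.4 in the lines, and Gfap, not in the sum, was dim on all 4 arrays. The 4376 of NS195R came mostly from S100b. Median ratios of the 3 markers were -1.88, 0.96 and -3.41 in the lines. Neural progenitor markers summed to 9742 in Mixture and to 33226, 74728 and 34746 in the lines. Fabp7 was at 7.19 and S100b at 4.13 in NS195R, the line with the higher Itga4, Itga9, Itgb8, Lama2, Lama4 and Lamb3. The part of epithelial, glial or progenitor cells in the differences between lines was not tested.

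**Figure D4:**
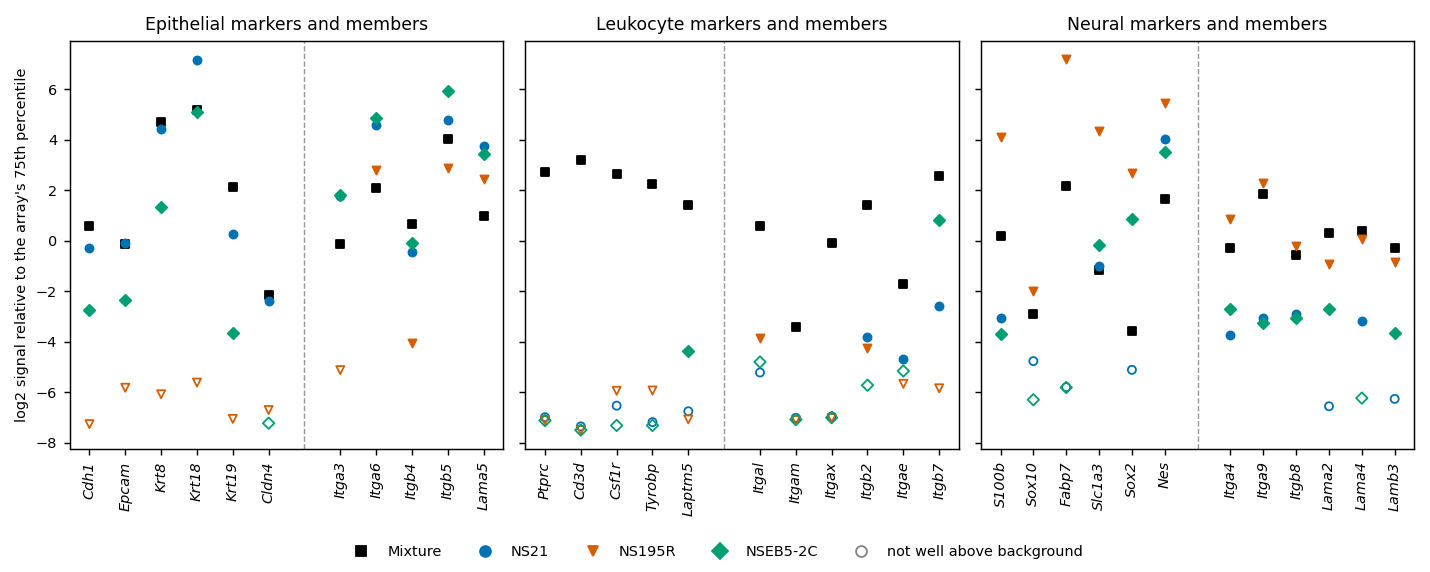
Levels on each array (vertical axis, log2 signal relative to the array's percentile 75) of epithelial, leukocyte and neural marker genes, left of each dashed line, and of members, right of it. Open symbols are dim signals. The epithelial markers of NS195R are all open, as is its Itga3, and the leukocyte markers are open in all lines except Laptm5 in NSEB5-2C.

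Probes of 1 gene gave several readings of that gene, and some of them are listed for different transcripts. Of 8 genes with more than 1 probe detected on all 4 arrays, the ratios had opposite signs in Itga7 (0.05 and -0.06) and Itgb8 (-1.51 and 0.20). For Itgb8 both probes put NS195R highest, at -0.20 and -1.83. The 3 probes of Itga6 gave 2.01, 1.21 and 0.18, and in each NS195R had the lowest level of the lines. Those of Itgb4 (-2.18 and -2.04) and Itga8 (-0.94 and -0.67) differed little. Itgb3 gave -3.03 and -0.36, with NS195R lowest and NSEB5-2C highest by both. By the probe with -0.36 the lines stood at -2.22, -3.15 and -1.51. Neither NS195R nor NSEB5-2C then lay at least 2-fold from both other lines. For Itga1 the ratios ran from -2.32 to -0.01. The probe with -0.01 put NS195R highest, at -2.95, against -3.53 in NSEB5-2C and -3.47 in Mixture. All other Itga1 probes put NSEB5-2C highest of the lines.

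Itgb1 had a probe for a cDNA listed apart from the RefSeq transcript of its other probes. That probe was detected only in Mixture, at -2.27, and stood at -6.83, -7.06 and -7.07 in the lines. The other probes gave ratios of 1.86 and 1.49, so the gene's direction depends on which are used. A probe of Itga9 that the array design lists under a clone name had 1.0 in Mixture and -4.04, 1.62 and -4.18 in the lines. The 4 arrays stood in the same order as by the probe listed under Itga9. The 3 probes of Itga3 were all dim in NS195R and detected on the other arrays. By 1 of them the lines stood at -2.80, -4.71 and -2.78, a smaller difference than by the probe with the highest mean. Ratios to Mixture by the 3 probes were -0.39, -0.40 and 0.30.

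**Figure D5:**
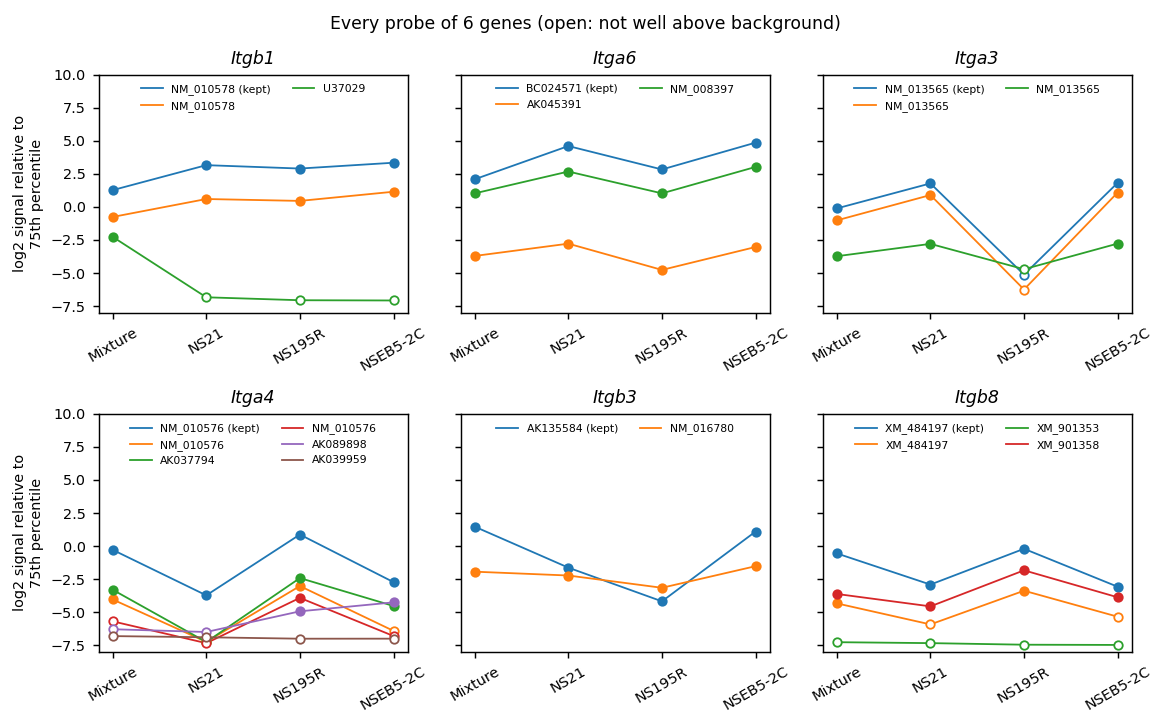
Every probe of Itgb1, Itga6, Itga3, Itga4, Itgb3 and Itgb8 on the 4 arrays (vertical axis, log2 signal relative to the array's percentile 75; open where dim), with the transcript each probe is listed for. The Itgb1 probe listed for U37029 lies lower in the lines than in Mixture and the other Itgb1 probes lie higher, and every Itga3 probe is open in NS195R.

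Downstream of integrins, adaptor and signalling genes were a list of 26, all tested. With limma 0 were higher and 2 were lower, against the 0.938% and 8.91% of all genes, with 3 each way at an unadjusted p under 0.05. Their median log2 ratio was 0.76, above the 0.44 of all genes and unlike the -2.18 of the members. The 2 that fell were Lims2 (3.73 in Mixture and -2.67, -2.70 and -3.91 in the lines, log2 ratio -6.82, SE 0.71, limma adjusted p = 0.0246) and Fermt3. Fermt3, the kindlin of blood cells, had 1.09 in Mixture, -4.53 in NS21, and was dim in the other lines (log2 ratio with these as read -6.22, SE 0.57, limma adjusted p = 0.0188). Tns1, a tensin, had a ratio of -3.20 (SE 0.64, limma adjusted p = 0.0827) and the kinase gene Src 2.42 (SE 0.65, limma adjusted p = 0.121).

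Basement membrane partners and laminin receptors outside the integrins gave 12 tested genes of 13 listed, with 0 past limma in either direction (against the same shares) and 1 higher at an unadjusted p under 0.05. Their median ratio was 0.02. Lamb1, the beta chain that joins the Lamc1 product in most laminins of the embryo, had 1.17 in Mixture and 2.59, 1.58 and 3.36 in the lines, above Mixture in 3 of 3 (log2 ratio 1.34, SE 0.86, limma adjusted p = 0.378). The laminin binding receptor gene Bcam had 0.99 in Mixture and -1.17, -4.75 and -4.21 in the lines (log2 ratio -4.36, SE 1.76, limma adjusted p = 0.208). Nid2, which links laminin to collagen networks, had a ratio of 1.67 (SE 0.47, limma adjusted p = 0.130), and Ntn4 one of -1.35 (SE 2.63).

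Other integrin ligands were 16 tested genes, with 0 higher (against 0.938% of all genes) and 4 lower (against 8.91%) past limma and a median ratio of -2.41. The 4 were the fibrinogen chain genes Fga, Fgb and Fgg and the von Willebrand factor gene Vwf, which are plasma, platelet and vessel proteins. Fga was dim in every line and at least 753-fold lower (limma adjusted p = 0.00847, lower in 3 of 3 lines). It entered the test through Mixture alone, and the spread in its fit is that of background readings. Of the 16 genes 4 were dim in all 3 lines. Vtn, which encodes the plasma protein vitronectin, had 5.62 in Mixture and -1.16 in NS195R and was dim in the other lines. The ratio did not pass limma (adjusted p = 0.129).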

How the data were processed

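All 4 one-colour arrays lay on 1 slide and were scanned once, so no batch could be tested. The deposited intensity values are background-subtracted processed signals with quality flags, and per the file headers the software was version 9.5.3.1 of Agilent Feature Extraction. A value table that the authors deposited repeats these intensities at all 45018 features. Columns of other samples numbered 0. From the deposited values the log2 was taken and scaled by subtracting the array's percentile 75 (43379 non-control spots). Outlier spots were left out, copies of a probe averaged, and 19 probes that lacked a value on some array dropped. No probe position is printed, because the probes' genome build was not stated. The sequences before gene starts came from RefSeq tables of GRCm38.p6, matched by symbol.

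For each gene the probe with the highest mean was kept. NPC lines and Mixture were compared in R 4.3.3 by limma 3.58.1 (lmFit, eBayes; 2 residual degrees of freedom, prior 1.33; two-sided, Benjamini-Hochberg), taking the lone Mixture array to vary as the lines do. Nothing says that the samples came from separate cultures beyond their line names, and p-values measure the spread between these arrays. A fold written as "at least" applies where 1 group was dim throughout: the dim signal was replaced by the lowest detected signal of its array if that was higher. Unless stated otherwise, a p-value beside such a fold is of the fit with dim signals as read. Lines were compared by fold, without a test, and by a limma fit of each line.

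The members, gene lists and marker lists were chosen with earlier results of these data known. Every member could be named, but 1 member and some marker genes are counted and not reported here by name. Of the other lists, genes past limma were named, and otherwise up to 4 per list with the largest ratio. The fitting code was tested on simulated data, as a check of the code alone. Alternatives covered background correction, scaling, filters, the probe per gene, dim values, the variance prior, the value table, the fold, and leaving out each line.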

Additional observations from a re-analysis of the deposited data

How the results depend on the processing

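Members past limma numbered 0 higher and 4 lower (0.938% and 8.91% of all genes), with a median ratio of -2.18. With normexp background correction (offset 50) they were 3 higher and 7 lower (4.87% and 9.91%) with a median of -0.87, and with dim values raised 7 were lower (10.5%). With only genes detected on every array 0 were lower, as were 0 of all 12732 genes, with a median of -0.89 over the 18 members left. The median was -1.43 with median scaling, -1.57 with no filter on dim probes and -1.28 with the mean of the probes. Median scaling moved the median of all genes up by 0.75, and relative to that median it gave the same ratios as percentile 75. Without each NPC line in turn, between 0 and 0 members and 0 of all genes were lower, with fewer residual degrees of freedom. The value table gave the same values.

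Counts per line differed by over 1.5 times in the following cases, where the percentage is the share of all genes. NS21 lay above both lines for 1 member with quantile (8.59%) and 1 with median scaling (8.24%), and below both for 0 with normexp (1.91%) and 0 with the filter on all arrays (4.25%). NS195R lay above for 3 with that filter (6.79%), and below for 5 with the 4-fold limit (3.41%), 5 with normexp (3.25%) and 5 with that filter (6.61%). NSEB5-2C lay above for 4 with the 4-fold limit (3.32%) and 4 with that filter (4.56%). It lay below for 2 with the 4-fold limit (3.12%), 0 with normexp (1.99%), 2 with quantile normalization (7.33%) and 1 with that filter (6.46%).

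Ratios of the following genes changed sign. Itga3 (-0.39) had 0.39 with normexp, 0.36 with median scaling and between -1.56 and 1.91 without 1 line. Lama1 (-0.37) had 0.060 with normexp, 0.47 with quantile normalization, 0.38 with median scaling, 0.22 with dim values raised and between -1.23 and 0.88 without 1 line. Itga7 (0.05) had -0.0064 with the mean of probes and between -0.57 and 0.41 without 1 line. Itgb1 (1.86) had -0.46 with the mean of probes. Without 1 line Itgb5 (0.50) lay between -0.20 and 1.32. Where the alternative itself does not show it, the cause was not tested. No paired analysis was possible because Mixture has 1 array. Dim signals limit the ratios of genes not detected in the lines, and 1 array for each line limits the rest.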
